A study of Mus musculus with 57 samples.

Results

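The cells followed here came from Sox1+FoxA2+ mouse embryonic stem cells (ESCs) that were sorted after 2 days of differentiation, and from the cells that grew from them in the next 2 days. The comparison sets the 3 libraries of the D4 progeny of sorted Sox1+FoxA2+ cells against the 3 libraries of the D2 Sox1+FoxA2+ parents, 6 of the 57 libraries of the series, over all genes. Members were taken by sample title alone, and no measured value was used to choose them.

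The study used a mouse ESC line, derived as 1 clone, in which EGFP replaces the coding part of 1 Sox1 allele and mCherry is joined to FOXA2, so that cells can be sorted by both reporters at the same time. All groups in the comparison carry both reporters, and all had been in 1 uM retinoic acid (RA). The parents were kept in serum with LIF, moved to N2B27, a serum-free basal medium, with RA for 2 days, and sorted as positive for both reporters. The progeny were sorted in the same way at D2, replated on gelatin with RA in serum medium without LIF, and harvested at D4. By the study's methods they were counted and taken at harvest without a second sort, whereas the sample labels describe sorting for all samples. The change of medium, the replating, 2 more days in RA and any difference in sorting at harvest therefore fall together in this contrast. They cannot be told apart. Further groups used beside it were the D2 parents and D4 progeny of the Sox1+FoxA2- and Sox1-FoxA2+ cells, treated in the same way, and D4 Sox1+FoxA2+ cells that stayed in N2B27 with RA and were sorted at D4. The closing observations also cite D0 cells, titled Sox1-FoxA2- and listed without RA. They also cite the D6 progeny of Sox1+FoxA2+ cells, listed at 1 uM RA. Each group had 3 replicates.

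SOX1 is a transcription factor of the early neural plate, and FOXA2 is a pioneer factor of endoderm that also acts in node, notochord and floor plate. RA binds nuclear receptors and drives ESCs mainly towards neural fates, while the same signal also yields extraembryonic endoderm in culture. Serum carries growth factors, lipids and lysophospholipids, and in many cell types it activates SRF (serum response factor), which reads the CArG box in front of genes of actin and its partners. Sterol enzymes are under SREBP2, a factor that is held inactive when cells have enough cholesterol.

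Library size ranged from 25237064 to 51623198 counts in the parents and from 13480175 to 34167909 in the progeny. Progeny replicate 1 was the shallowest of the 6, and the replicate 1 libraries of the other D4 progeny groups, with 11189529 and 10170632 counts, were also shallow. Between 15262 and 19395 genes were detected in the parents, against 21057 to 23876 in the progeny. Mitochondrial transcripts made up 5.51% to 12.9% of counts in the parents and 11.1% to 18.5% in the progeny, with the highest share in progeny replicate 1. The 50 most abundant genes took 18.5% to 24.7% of the counts in the parents and 24.9% to 39.7% in the progeny, again with the highest share in progeny replicate 1. The part of these shares in the results was not tested, and results are given with and without that library where it decides them. No 2 libraries held identical values. The labels do not say whether replicates were separate cultures, although the study calls them biological, and p-values measure the spread between these libraries.

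Values below are normalized counts, that is counts divided by a size factor for each library, and changes are log2 fold changes with their standard error (SE). A gene was called when the p-value of edgeR's quasi-likelihood test, two-sided and adjusted by Benjamini-Hochberg over all genes tested, was under 0.05. Bulk libraries cannot tell fewer cells of a kind from less RNA per cell. Genes whose span lies wholly inside other genes were at 0 in nearly every case. Of 749 protein-coding genes that lie wholly inside genes of the opposite strand, 749 were at 0 in all 57 libraries, against 331 of 11728 (2.82%) that share no base with another gene. Such genes, among them Sox1, Sox2, Srf, Tubb3 and Timp1, have no level here.

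Of the reporter genes, Foxa2 could therefore be followed. It was at 1582, 1956 and 1067 normalized counts in parents 1 to 3 and at 326, 1150 and 264 in progeny 1 to 3. The groups overlapped, because progeny replicate 2 lay above the lowest parent. The log2 fold change was -1.42 (SE 0.97, edgeR adjusted p = 0.462), so a difference in Foxa2 was not detectable at this spread. Sox1 was listed at 0 in all libraries and checks nothing.

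Between D2 parents and D4 progeny, 654 of 22909 genes tested (2.85%) changed, 416 of them higher (1.82%) and 238 lower (1.04%) in the progeny. The median log2 fold change was 2.26 among the genes that rose and -1.60 among those that fell, beside 0.23 over all genes tested. The 3 progeny libraries lay above all 3 parents for all 416 genes that rose, and below them for 235 of the 238 that fell. Over all genes tested the libraries were apart in this way for 3961 genes higher (17.3%) and 1649 lower (7.2%). Of the calls, 182 higher and 65 lower held in every refit that left out 1 of the 6 libraries in turn or replicate 1 of the 3 D4 progeny groups at once. The count of calls was 379 without progeny replicate 1 and 340 without progeny replicate 2, against 654 with all libraries. The plot of change against level shows where the genes named in the text lie among all genes.

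**Figure D1:**
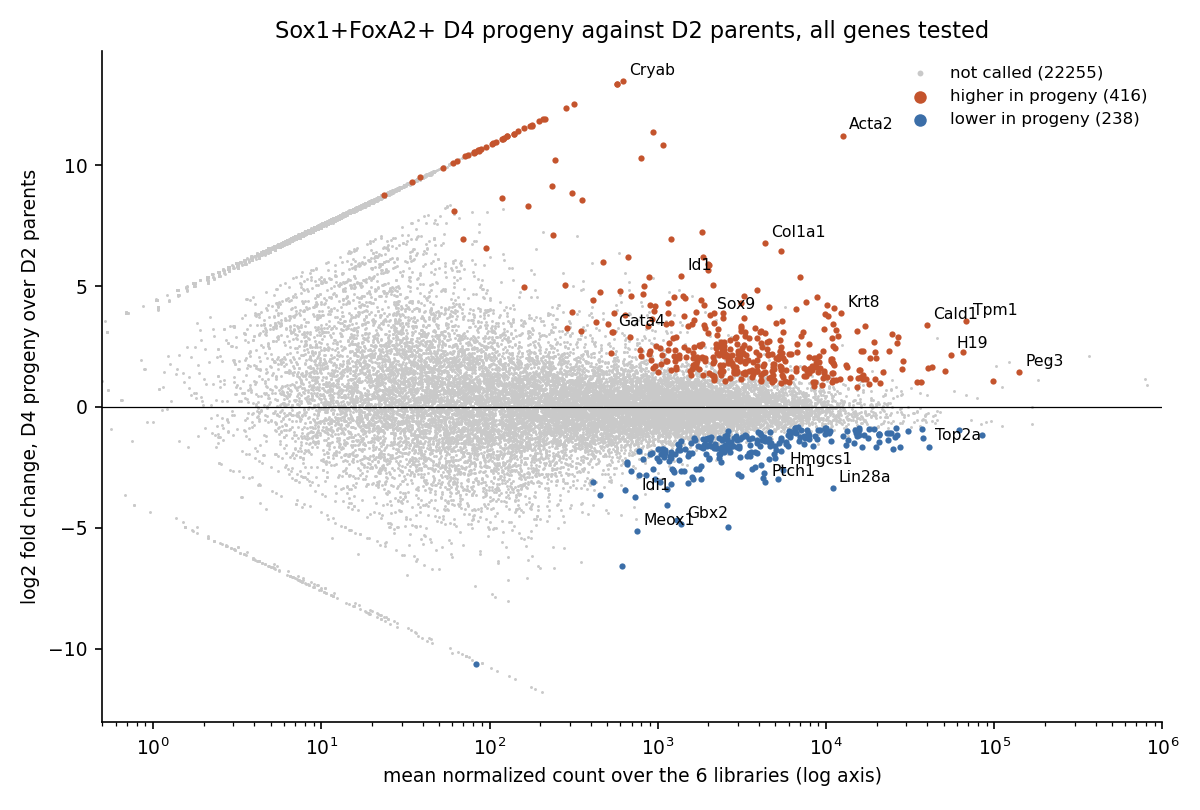
Each point is 1 of 22909 genes, with mean normalized counts over the 6 libraries on the x axis (log scale) and the log2 fold change of D4 progeny against D2 parents on the y axis; coloured points are the 416 genes called higher and the 238 called lower. Acta2 stands at a log2 fold change of 11.2 and Lin28a at -3.36.

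The clearest group to rise was that of the contractile actin cytoskeleton. Of 24 genes tested from the list of smooth muscle and serum response genes, 17 rose and 0 fell, the libraries were apart for 22, and the median log2 fold change was 2.97. Acta2, the smooth muscle actin, lies on chromosome 19 (34241090 to 34255590, GRCm38). It was at 18.5, 3.63 and 5.46 normalized counts in parents 1 to 3 and at 23583, 29757 and 21970 in progeny 1 to 3. It was close to absent in every parent library and well covered in every progeny library, with a log2 fold change of 11.2 (SE 1.05, edgeR adjusted p = 7.93e-07).

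Cald1, the actin and myosin binding caldesmon, was already well expressed in the parents, at 6308, 6983 and 7500, and reached 74848, 80919 and 63294 in the progeny. Its log2 fold change was 3.38 (SE 0.24, edgeR adjusted p = 1.4e-08). Tpm1, a tropomyosin that lies along the actin filament, went from 6812, 11999 and 12738 to 152271, 124165 and 101432. That rise was 3.57 on the log2 scale (SE 0.27, edgeR adjusted p = 5.43e-08). Tpm2 and Tpm4 rose as well, by 3.10 and 1.69 on the log2 scale, where 49.4% of the span of Tpm4 is shared with other genes.

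Motor and adhesion genes rose too. Myh9 and Myh10, the heavy chains of non-muscle myosin, rose by 1.64 and 1.47 on the log2 scale from parent levels of 15216 or more in every library. Flna, which crosslinks actin, was at 10613, 15526 and 9678 in the parents and 51933, 45216 and 38740 in the progeny. Zyx, a focal adhesion protein, was at 502, 1185 and 318 in the parents and 6001, 6391 and 5425 in the progeny (log2 fold change 3.11, SE 0.42, edgeR adjusted p = 9.98e-05). Vcl and Actn1, which tie actin to adhesions, rose by 1.84 and 1.44, and Csrp1, an actin-associated LIM protein, rose by 2.21. In each of these genes the lowest progeny library lay above the highest parent.

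Markers closer to smooth muscle were low or absent in the parents. Tagln (transgelin) was at 0 in all 3 parents and at 383, 361 and 293 in the progeny. Against a floor of 3 counts in each parent library this is at least 121-fold higher (edgeR adjusted p = 0.00161), and 58% of the span of Tagln is shared with other genes. Ankrd1, a cardiac ankyrin repeat protein that is a usual target of YAP, was at 0 in the parents and at 256, 244 and 133 in the progeny, at least 74-fold higher. Lmod1, which nucleates actin in smooth muscle, was at 312, 143 and 0 in the parents and 5170, 2811 and 2473 in the progeny. Myh11, the smooth muscle myosin heavy chain, rose by 3.22 on the log2 scale from 180, 336 and 808 to 6889, 3787 and 1658. Its call was lost when replicate 1 of the 3 D4 progeny groups was left out (edgeR adjusted p = 0.105).

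The 7 genes of the list that were tested and did not pass all had positive values. Cnn1 (calponin) was at 105, 853 and 0 in the parents and 4256, 4754 and 3256 in the progeny (log2 fold change 3.62, edgeR adjusted p = 0.128). Ccn1, a matrix protein induced by serum, was at 230, 1142 and 1209 against 6039, 6910 and 5618 (2.85, edgeR adjusted p = 0.0523). The others were Actg2, Tagln2, Myl9, Ccn2 and Fhl2, between 0.58 and 3.11. The list count stayed at 17 without progeny replicate 1 and without progeny replicate 2, and was 14 when only the 6 libraries entered the fit. Markers of cardiac muscle gave 0 calls of 9 tested by edgeR, and those of endothelium and blood 0 of 9 and 0 of 7. At an unadjusted p under 0.05 they numbered 0, 1 and 3, beside 4378 of all 22909 genes tested. By DESeq2 they numbered 0, 0 and 2, beside 2145 of all genes.

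The promoters of this group were read for the CArG box because it is the letter pattern that SRF reads. Promoter windows from 250 bases before to 50 after the start were taken from RefSeq (GRCm38.p6), and the CArG box was searched on both strands. Of the 15148 genes tested that had a window, 1.66% held it in at least 1 window. The share was 3.21% of 312 such genes that rose. Of the smooth muscle and serum response genes, 4 of 20 tested with a window and 2 of 15 called with one held it. These 2 are printed with 15 bases on either side and the box in capitals, 5′ to 3′ on the strand of the gene. The stretch of Cnn2 (chr10:79988529-79988568, plus strand) ends its match 46 bases before the start, and that of Vcl (chr14:20929156-20929195, plus strand) 217 bases before it.
Cnn2: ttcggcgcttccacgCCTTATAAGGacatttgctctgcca
Vcl: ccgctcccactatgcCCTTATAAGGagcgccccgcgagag
Cnn2 (calponin 2) was at 770, 873 and 857 normalized counts in the parents and at 7145, 8611 and 6321 in the progeny, a log2 fold change of 3.13 (SE 0.44, edgeR adjusted p = 0.000153). Vcl was at 4393, 3507 and 6537 in the parents and at 13734, 19124 and 18589 in the progeny. The 2 genes hold the same 10 letters in their box and were printed because they were called, so their rise is no result about the box. The other 2 of the 4 genes with a box did not pass the test. A match is a description of the sequence and not a bound site, and a window without one says nothing about SRF.

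**Figure D2:**
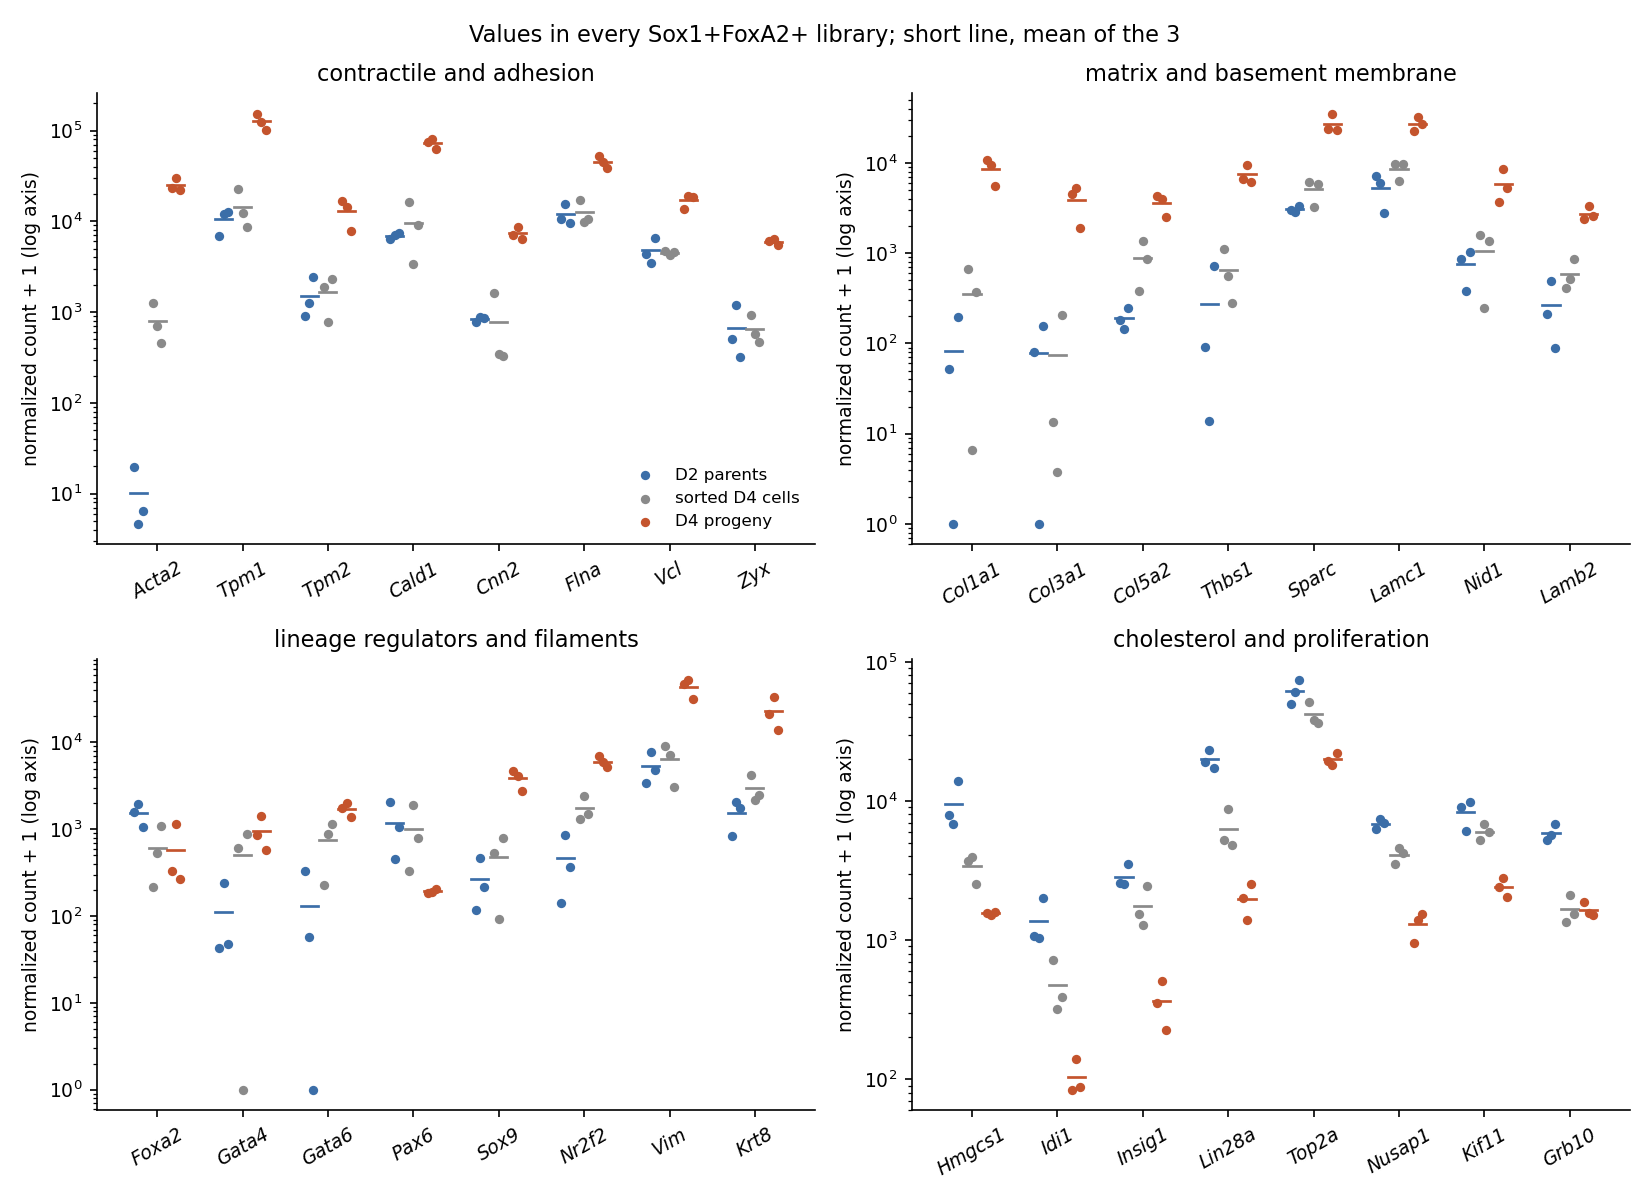
Normalized counts plus 1 (log scale) of selected genes in each library of the D2 parents, the D4 progeny and the D4 Sox1+FoxA2+ cells sorted from N2B27; each point is 1 library and the short line is the mean of the 3. Acta2 lies between 3.63 and 18.5 in the parents, between 459 and 1262 in the cells sorted at D4 and at 21970 or more in the progeny, whereas Lin28a lies at 17305 or more in the parents, between 4790 and 8769 in the cells sorted at D4 and between 1386 and 2522 in the progeny.

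Genes of the extracellular matrix rose too. Of 23 fibrillar collagen and matrix genes tested, 11 rose and 0 fell, with a median log2 fold change of 2.25. Col1a1, a chain of type I collagen, was at 51.5, 0 and 194 normalized counts in the parents and at 10801, 9443 and 5503 in the progeny. That is a log2 fold change of 6.77 (SE 1.19, edgeR adjusted p = 0.00158). The type V chains Col5a1 and Col5a2 rose by 2.67 and 4.24, and Fbn1 (fibrillin) rose by 2.25, each in every refit without a library. Loxl2, a collagen crosslinking enzyme, was at 349, 327 and 49.1 in the parents and 1761, 5205 and 2094 in the progeny, with 85.6% of its span shared with other genes.

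The calls of Col3a1, Fn1, Fbn2, Mmp14 and Thbs1 were each lost in at least 1 such refit, with adjusted p up to 0.286 for Mmp14 without progeny replicate 2. Thbs1, which binds matrix and TGF-beta, was at 91.4, 12.7 and 718 in the parents and 6688, 9543 and 6205 in the progeny, and its adjusted p was 0.0587 without parent replicate 1. The list count was 7 without parent replicate 1, 7 without progeny replicate 2 and 4 when only the 6 libraries entered the fit. Col1a2 was at 111, 123 and 0 in the parents and 2592, 2254 and 1956 in the progeny, without passing the test (edgeR adjusted p = 0.0933).

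Basement membrane genes, which parietal endoderm makes in large amounts, gave 7 rises and 0 falls of 21 tested, with a median of 1.49. Sparc, a calcium-binding matrix protein, was at 3051, 2878 and 3352 in the parents and at 23631, 34936 and 23402 in the progeny (log2 fold change 3.13, SE 0.39, edgeR adjusted p = 4.07e-05). The parent libraries were close to each other in this gene, and all progeny lay far above them. Lamc1, a laminin chain, was at 7192, 5994 and 2811 against 22589, 32115 and 26734 (2.31, SE 0.35, edgeR adjusted p = 0.000295). Nid1, Hspg2 and Lamb2, a linker, a proteoglycan and another laminin chain, rose by 2.95, 2.28 and 3.33 on the log2 scale. Col4a1 and Col4a2, the type IV collagen chains, rose by 2.02 and 2.03, but their adjusted p reached 0.15 and 0.0781 without progeny replicate 2. Lama1 and Lamb1 had positive values of 1.49 and 1.08 that did not pass (edgeR adjusted p = 0.148 and 0.18).

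The endoderm genes themselves gave few calls. Of 13 endoderm transcription factors tested, Gata4 and Gata6 rose. Gata4 was at 41.6, 241 and 46.4 in the parents and 869, 1438 and 574 in the progeny (log2 fold change 3.09, edgeR adjusted p = 0.0331). Gata6 was at 332, 56.3 and 0 against 1738, 2032 and 1382 (3.63, edgeR adjusted p = 0.0455). Both calls sat near the threshold, and adjusted p was 0.14 for Gata4 without progeny replicate 2 and 0.154 for Gata6 without parent replicate 2. Sox17 was at 224, 701 and 445 in the parents and 243, 727 and 117 in the progeny, and the groups overlapped. Among 15 visceral endoderm genes tested, Lrp2, the endocytic receptor megalin, rose by 1.42 and Apoe fell by 2.10 on the log2 scale, and both calls were lost without 1 library (edgeR adjusted p = 0.195 for Lrp2 without progeny replicate 2 and 0.0794 for Apoe without progeny replicate 1).

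Keratins rose clearly. Krt8 was at 842, 2059 and 1771 normalized counts in the parents and 21403, 33427 and 13991 in the progeny (log2 fold change 3.87, SE 0.39, edgeR adjusted p = 2.38e-06). Its partner Krt18 was at 1808, 1844 and 516 against 17530, 26186 and 14149 (3.75, SE 0.50, edgeR adjusted p = 7.51e-05). Of 24 epithelial genes tested, 3 rose and 0 fell, these keratins among them. Progeny replicate 2 was the highest of the progeny in Krt8, Krt18, Foxa2 and Sox17, and also in Krt7, where it was at 3053 against 1067 and 535, and in Cldn4, where it was at 2326 against 543 and 587.

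Neural progenitor genes moved both ways, with 5 rises and 3 falls of 25 tested and a median of 1.09, or 1.01 with genes at 0 in the parents set to their bound. Vim, an intermediate filament of progenitors and of mesenchyme, was at 3427, 7810 and 4764 in the parents and at 47057, 52712 and 31430 in the progeny (log2 fold change 3.01, SE 0.39, edgeR adjusted p = 6.68e-05). Sox9, a factor of neural progenitors, crest and cartilage, was at 118, 472 and 216 against 4704, 4080 and 2751 (3.81, SE 0.54, edgeR adjusted p = 0.000163). Nr2f2, the nuclear receptor COUP-TFII, was at 140, 869 and 371 against 6899, 5921 and 5252. Gli3, which transmits Hedgehog signals mainly as a repressor, rose by 1.71. These 4 genes held in every refit without a library.

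Nes (nestin) rose by 1.98 on the log2 scale, and stood at 28721 in progeny replicate 1 against 12139 and 11506 in the other two. Its adjusted p was 0.158 when replicate 1 of the 3 D4 progeny groups was left out. Prom1 (prominin 1) fell by 3.18 on the log2 scale from 1730, 1208 and 3578 to 230, 119 and 362. Pax6, a factor of neural plate and eye, was at 2061, 454 and 1054 in the parents and at 185, 190 and 206 in the progeny (log2 fold change -2.64, edgeR adjusted p = 0.027), and was lost without parent replicate 1 (edgeR adjusted p = 0.129). Ptch1, the Hedgehog receptor and itself a target of the pathway, fell by 3.10, from 3676, 9789 and 9954 to 626, 756 and 1323 (SE 0.42, edgeR adjusted p = 9.23e-05). It was the only gene of 12 tested from the list of ventral neural tube and Hedgehog genes to pass. Of 15 neuronal genes tested, Map2 and Ina fell and 0 rose, and both calls were lost without 1 library.

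Core and formative pluripotency genes fell where they were called, whereas naive pluripotency genes were called in both directions. Lin28a, an RNA-binding protein that blocks let-7 maturation, was at 19139, 23410 and 17305 in the parents and at 2016, 1386 and 2522 in the progeny. Its log2 fold change was -3.36 (SE 0.33, edgeR adjusted p = 2e-06). Sall4, Dnmt3b and Pou3f1 also fell, making 4 of 19 core and formative genes tested, with a median of -1.41. Without progeny replicate 1 only 1 of these calls was left, and adjusted p was then 0.067 for Sall4 and 0.209 for Dnmt3b. Of 17 genes of naive pluripotency tested, Gbx2 fell from 1204, 2619 and 4158 to 83.1, 102 and 87.4 (log2 fold change -4.85, SE 0.66, edgeR adjusted p = 0.000105). Klf5, which also serves epithelial and smooth muscle cells, rose from 726, 1423 and 614 to 4921, 6571 and 5376 (2.58, SE 0.41, edgeR adjusted p = 0.000522). The other 15 naive genes did not pass. Of the 17 values 7 were positive and 10 negative, with a median of -0.92. The summed level of the naive list overlapped between parents (7582 to 16238) and progeny (10465 to 14222). Of 10 mesendoderm genes tested 0 passed by edgeR, and 0 had an unadjusted p under 0.05 or passed by DESeq2. Meox1, a homeobox gene of somites, fell by 5.13 on the log2 scale, from 865, 2272 and 1242 to 35.2, 44.5 and 45.8, and 29.5% of its span is shared with other genes.

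Sterol synthesis fell as a group. Of 19 cholesterol genes tested, 10 fell and 0 rose, all 19 had negative values, and the median was -1.56. Hmgcs1, which makes HMG-CoA, was at 7925, 6805 and 13909 in the parents and at 1556, 1518 and 1597 in the progeny. The progeny libraries were within a narrow range of each other and far below every parent (log2 fold change -2.61, SE 0.32, edgeR adjusted p = 3.79e-05). Idi1, which isomerizes isopentenyl diphosphate, fell by 3.71 from 1075, 1033 and 1995 to 83.1, 140 and 87.4. Insig1, the sterol sensor that keeps SREBP in the endoplasmic reticulum, fell by 2.99 from 2555, 2517 and 3524 to 352, 506 and 227. Srebf2, which encodes SREBP2, fell by 1.26 from 6855, 5775 and 5431 to 2620, 2301 and 2738.

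Sqle, Fdft1, Cyp51, Msmo1 and Nsdhl, enzymes of the later steps, fell by between 1.32 and 2.36 on the log2 scale. Without progeny replicate 1 the group kept 4 of its 10 calls, while its median was -1.44. The letters TCACNCCAC, a form of the sterol element, were held by 1.43% of the genes tested that had a window. From this list 1 of 11 such genes held them, Hmgcs1. Its stretch on the plus strand (chr13:119690199-119690237) has the match 128 bases before the start. It is shown because Hmgcs1 was called and was the only one of the 11 with a match, so its fall is no result about the element.
Hmgcs1: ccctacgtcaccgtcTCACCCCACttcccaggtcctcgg
Of the span of Hmgcs1, 34.6% is shared with other genes.

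Mitotic genes fell as well. Of 20 genes of G2 and mitosis tested, 12 fell and 0 rose, with a median of -1.04. Top2a, the topoisomerase that untangles sister chromatids, was at 49797, 61012 and 74385 in the parents and at 19294, 18201 and 22258 in the progeny (log2 fold change -1.64, SE 0.24, edgeR adjusted p = 0.000235). Nusap1, a spindle protein, fell the most of the list, from 6320, 7435 and 6898 to 959, 1398 and 1528 (-2.42, SE 0.29, edgeR adjusted p = 2.69e-05). Cenpf, a kinetochore protein, and Kif11, a spindle motor, fell by 1.44 and 1.80 on the log2 scale and held in every refit without a library. The other calls were Mki67, Ccnb1, Aurka, Aurkb, Bub1, Bub1b, Ube2c and Birc5, and each was lost in at least 1 refit, so that the count was 6 without progeny replicate 1 and 6 without progeny replicate 2. Members without a call included Cdc20 (-0.22) and Cdk1 (-0.86). Of 18 genes of S phase tested, the helicase subunits Mcm3 and Mcm7 fell, by 0.96 and 0.94 on the log2 scale, and without progeny replicate 1 no gene of that list passed.

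The cell cycle element read in many mitotic promoters has the letters TTTGAA at its core, and it was searched on both strands. Of the genes tested that had a window, 17.0% held it in at least 1 window. The share was 23.2% of 168 such genes that fell, and 11 of 16 (68.8%) from the G2 and mitosis list. The variant TTCGAA was held by 2.22% of the genes tested that had a window and by 3 of 16 of the list. TTTGAA was held by 7 of 11 called members that had a window (63.6%). Mki67 and Top2a also hold a second match, 110 and 173 bases before the start, which is not printed. The 4 genes printed were taken from the called members, so their fall is no result about the element. Their stretches are shown on the strand of the gene with the match in capitals, where TTCAAA is the same core on the opposite strand. They lie at chr7:135716457-135716492 (Mki67, minus strand, 92 bases before the start), chr11:99024192-99024227 (Top2a, minus strand, 17 bases), chr19:37376348-37376381 (Kif11, plus strand, 13 bases) and chr2:164769885-164769920 (Ube2c, plus strand, 23 bases).
Mki67: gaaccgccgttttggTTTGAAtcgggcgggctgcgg
Top2a: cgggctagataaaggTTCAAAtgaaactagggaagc
Kif11: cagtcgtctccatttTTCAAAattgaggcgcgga
Ube2c: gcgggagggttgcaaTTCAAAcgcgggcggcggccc
Mki67, the proliferation antigen, was at 29047, 36104 and 30435 in the parents and at 16233, 12975 and 16559 in the progeny, and its adjusted p was 0.0548 without progeny replicate 2. Kif11 was at 9116, 6110 and 9879 against 2403, 2805 and 2047. Ube2c, a ubiquitin-conjugating enzyme of the anaphase-promoting complex, was at 4435, 5337 and 2222 against 876, 1574 and 1307, and its call was lost without progeny replicate 1 (edgeR adjusted p = 0.207).

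**Figure D3:**
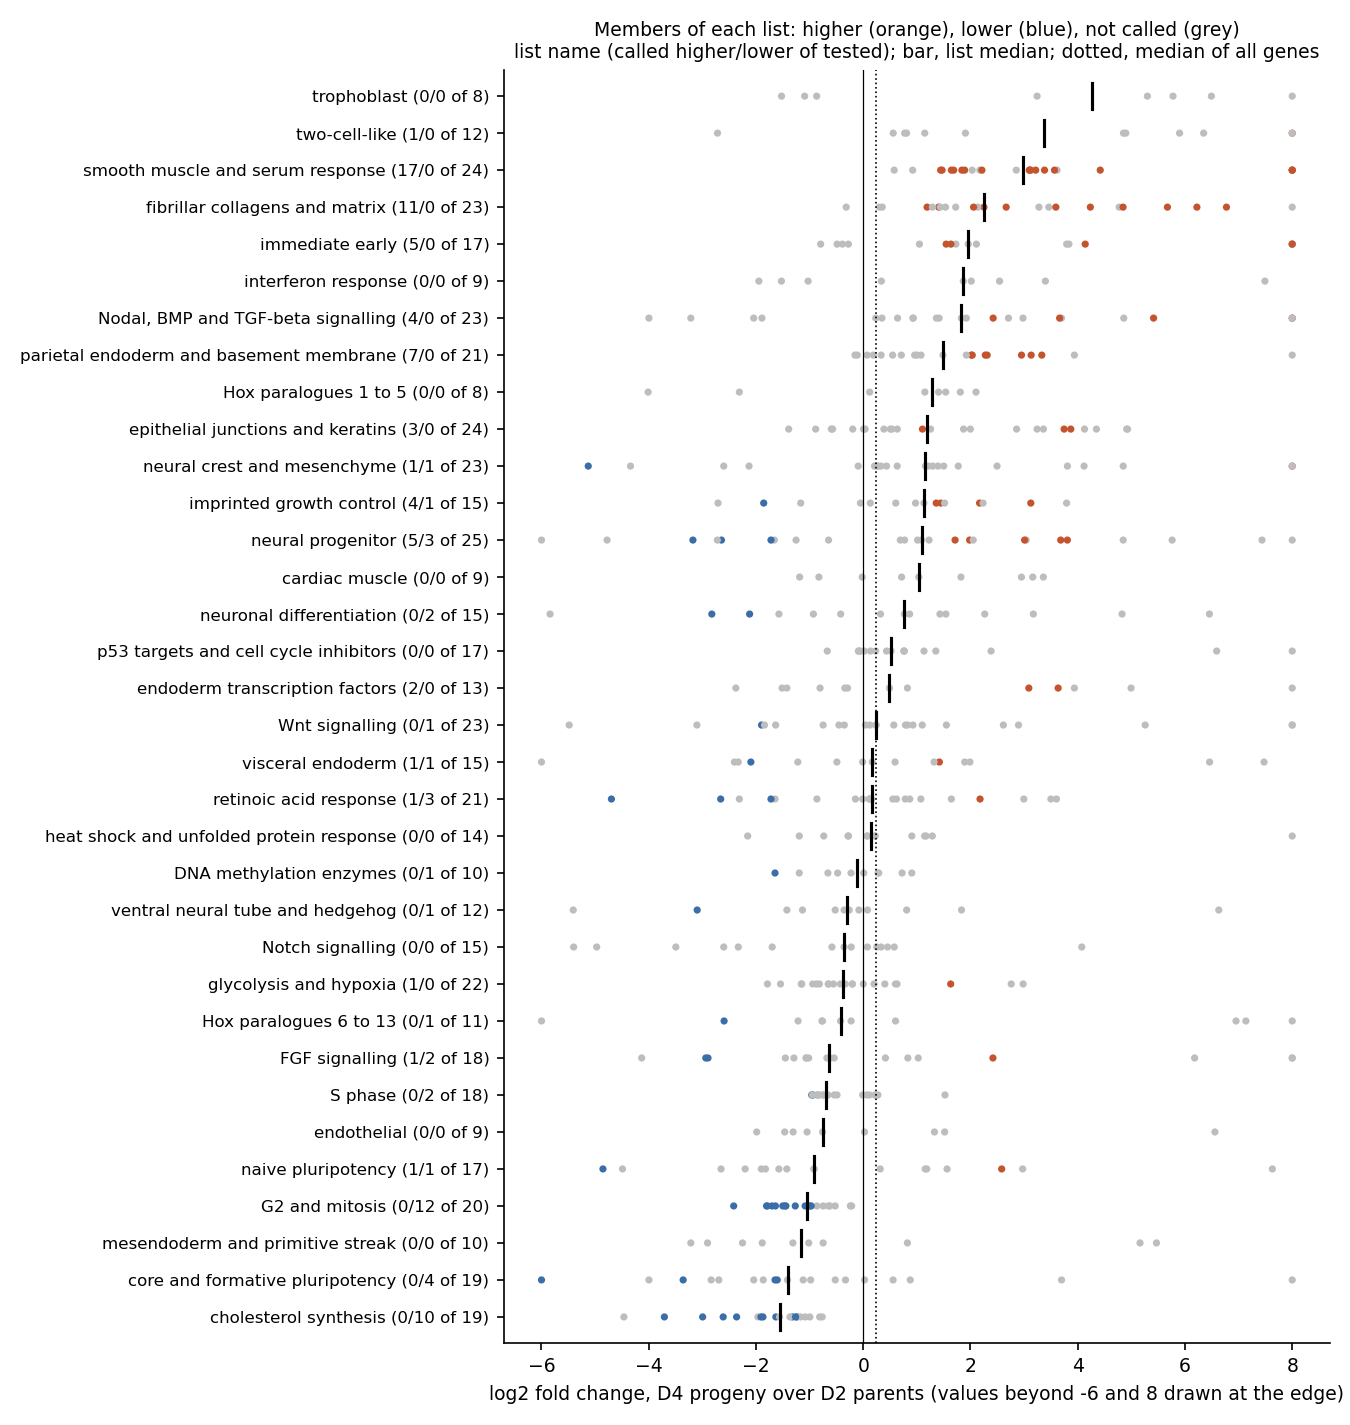
Log2 fold changes of D4 progeny against D2 parents for the genes tested in selected lists; each point is 1 gene, orange where called higher, blue where called lower and grey where not called, the bar is the median of the list and the dotted line is the median of all genes tested (0.23). The median is 2.97 for smooth muscle and serum response genes and -1.56 for cholesterol synthesis.

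Signalling genes were read by pathway. Of 17 immediate early genes tested, 5 rose and 0 fell. Fosl2, a subunit of AP-1, was at 153, 1060 and 243 in the parents and at 7541, 10662 and 8022 in the progeny (log2 fold change 4.14, SE 0.60, edgeR adjusted p = 0.000193). Jun, Klf6, Fosb and Zfp36 rose too, but each of these 4 calls was lost in at least 1 refit that left out libraries. The count was 3 without parent replicate 1, 3 without parent replicate 2 and 3 without progeny replicate 2. Of 23 genes of Nodal, BMP and TGF-beta signalling tested, Id1, Smad7, Tgfb2 and Nog rose. Id1, a BMP target that blocks differentiation factors, was at 76.3, 102 and 2.73 in the parents and at 2160, 2909 and 3012 in the progeny (5.41, SE 1.00, edgeR adjusted p = 0.00251). Tgfb2, a ligand, was at 250, 249 and 573 against 5030, 5460 and 3022, and Smad7, an inhibitor induced by the pathway, rose by 2.42. Nog (noggin), a BMP antagonist, was at 0 in the parents and at 176, 6.36 and 135 in the progeny, at least 37.1-fold higher, and its call was lost when replicate 1 of the 3 D4 progeny groups was left out (edgeR adjusted p = 0.138).

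Of 21 RA response genes tested, Cyp26b1 rose and Stra6, Crabp1 and Crabp2 fell. Cyp26b1, which degrades RA, was at 791, 532 and 1430 in the parents and at 3336, 5749 and 3264 in the progeny (log2 fold change 2.18, edgeR adjusted p = 0.0306). Stra6, a retinol carrier, fell by 2.66 on the log2 scale, with 61.2% of its span shared, and Crabp2, which brings RA to its receptor, fell by 1.72. Each of the 4 calls was lost without some library, with adjusted p up to 0.185 for Cyp26b1 without progeny replicate 2. Among 18 FGF genes tested, Etv5, a target of ERK signalling, fell from 1998, 3011 and 3477 to 489, 195 and 469 (-2.89, SE 0.42, edgeR adjusted p = 0.000235). Il17rd, an FGF antagonist that is also a target, fell by 2.94, while Dusp4, an ERK phosphatase, rose by 2.42 with an adjusted p of 0.217 without progeny replicate 2. Wnt5b fell among 23 Wnt genes tested and Hoxb8 among 11 Hox genes of paralogues 6 to 13, and both calls were lost without progeny replicate 1.

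Of 15 imprinted growth genes tested, H19, Igf2r, Peg3 and Plagl1 rose and Grb10 fell. H19, a long non-coding RNA of growth control, was at 13456, 32265 and 12844 in the parents and at 114692, 90967 and 65861 in the progeny (log2 fold change 2.17, SE 0.42, edgeR adjusted p = 0.00404). Grb10, which dampens insulin and growth factor signals, was at 5262, 5662 and 6851 against 1866, 1578 and 1521 (-1.86, SE 0.40, edgeR adjusted p = 0.00859). Igf2r, Peg3 and Plagl1 lost their calls in some refits, with adjusted p up to 0.266, 0.103 and 0.115. The genes of p53 and cell cycle inhibitors (17 tested), Notch (15), heat shock (14) and interferon (9) gave 0 calls each by edgeR, as did trophoblast markers (8) and the Hox genes of paralogues 1 to 5 (8). At an unadjusted p under 0.05 the counts in this order were 6, 3, 3, 1, 4 and 2, beside 4378 of all 22909 genes tested. DESeq2 called 2, 1, 1, 0, 3 and 2, beside 2145 of all genes. Hk2 rose among 22 glycolysis and hypoxia genes tested and Zscan4a among 12 two-cell-like genes, and both calls were lost without some library.

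Outside the lists, the largest fitted rises were mostly of genes at 0 in all 3 parents. Their fitted values depend on the prior count, so this order follows from the ranking and is no result. Of the 416 genes that rose, 39 were at 0 in all 3 parents, and for these the fold is given as a bound against 3 counts in each parent library. That bound covers counting error only, and not a transcript missed when a library was made. Cryab, a small heat shock protein of muscle and lens, was at 1285, 1481 and 967 normalized counts in the progeny, at least 437-fold higher (edgeR adjusted p = 6.45e-05). Pcolce, which enhances procollagen cleavage, was at 1259, 991 and 1173, at least 400.4-fold higher (edgeR adjusted p = 3.33e-05). Both were even among the progeny libraries. Mybpc3, a myosin-binding protein of heart muscle, was uneven, at 147, 3072 and 202, and so were Prss35, a protease-like protein, at 339, 1191 and 183 and Serpinb9b at 275, 1224 and 394. Progeny replicate 2 was the highest in each of these 3 genes.

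Serpinb9, an inhibitor of granzyme B, was also at 0 in the parents, and at 332, 682 and 233 in the progeny. Serpinb9 and Serpinb9b belong to a family of close copies, so the split of reads between them is uncertain. Ptgs2, the inducible cyclooxygenase, was at 0, 1.81 and 0 in the parents and at 729, 4283 and 626 in the progeny (log2 fold change 11.4, SE 1.82, edgeR adjusted p = 0.00062). Rgs4, a brake on G protein signals, was at 205, 517 and 160 in the progeny, at least 103-fold higher, and the host gene Snhg20 at 748, 178 and 364, at least 151-fold higher. Gem, Edn1 (endothelin 1), Twist2 and Slitrk2 completed the 15 largest rises, at least 139-, 125-, 98.2- and 98.4-fold higher, but adjusted p was up to 0.0531, 0.0921, 0.0947 and 0.0775 when libraries were left out.

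At the other end, Akr1c19, an aldo-keto reductase, was at 1422, 1316 and 920 in the parents and at 38.3, 4.24 and 2.08 in the progeny (log2 fold change -6.57, SE 1.23, edgeR adjusted p = 0.00276). Prdm1, the repressor BLIMP1, fell by 4.96 from 4328, 6780 and 4045 to 320, 133 and 62.4 (SE 0.80, edgeR adjusted p = 0.000645). In both genes the progeny libraries differed among themselves several fold but lay far below all parents. Mt1, a metallothionein that binds zinc, fell by 4.07, from 2085, 3232 and 1067 to 51.1, 227 and 102. Crabp1, Chchd10, Socs2, Ap3b2, Adamts17 and Ephx2 were also among the 15 largest falls, by between 3.11 and 4.70, and each lost its call without some library, with adjusted p up to 0.203 for Adamts17 without parent replicate 1. The others of these 15, Meox1, Gbx2, Idi1, Lin28a, Prom1 and Ptch1, held in every refit.

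Gene families that make up much of the RNA were read after the values had been seen. Of 75 cytosolic ribosomal protein genes tested, 23 fell and 0 rose, 73 had negative values, and the median was -0.88. Their summed level was 1158720, 1146690 and 1296470 normalized counts in the parents and 668255, 686890 and 650496 in the progeny. Replicates were close and the groups far apart, and many of these genes have near-identical copies in the genome, which makes single values uncertain. Of 59 histone cluster genes tested, 16 fell and 0 rose, with a median of -1.52 and the same reserve. The 13 proteins encoded by mitochondrial DNA all had positive values, with a median of 0.84, and mt-Co1 alone passed the test.

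The same contrast in the 2 populations positive for 1 reporter shares no library with this one and asks which of these changes the Sox1+FoxA2+ cells had in common with them. Same-numbered D4 progeny libraries of the populations deviated together, however, so the contrasts are not independent. Between D2 parents and D4 progeny, 402 genes (1.75%) changed in the Sox1+FoxA2- cells and 498 (2.17%) in the Sox1-FoxA2+ cells. Of the 416 genes that rose in the double-positive progeny, 394 (94.7%) had a positive value in the Sox1+FoxA2- contrast, beside 48.7% of all genes tested. In the Sox1-FoxA2+ contrast 401 (96.4%) were positive, beside 52.1% of all genes tested. Of the 238 that fell, 230 (96.6%) and 233 (97.9%) were negative there, beside 50.8% and 46.8% of all genes tested. Genes called higher in both the double-positive and the Sox1+FoxA2- contrast numbered 201, which is 48.3% of the 416 and 68.1% of the 295 called there. With the Sox1-FoxA2+ contrast they numbered 179, or 43.0% of the 416 and 54.7% of 327. Genes called lower in both numbered 65 (27.3% of 238, 60.7% of 107) and 84 (35.3% of 238, 49.1% of 171), and 0 genes were called in opposite directions. Over all genes tested, 1.29% and 1.43% were called higher in the Sox1+FoxA2- and Sox1-FoxA2+ contrasts, and 0.467% and 0.746% lower.

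Acta2 was at 5.81, 0 and 0 normalized counts in the Sox1+FoxA2- parents and at 37897, 72444 and 29240 in their progeny. In the Sox1-FoxA2+ cells it was at 0, 23.6 and 81.1 in the parents and at 11331, 20678 and 17532 in the progeny. All 3 populations thus had next to no Acta2 before replating and high levels after it. The smooth muscle and serum response list gave 18 rises in the Sox1+FoxA2- and 22 in the Sox1-FoxA2+ contrast, with medians of 3.05 and 2.94 beside 2.97 in the double-positive cells. Cholesterol genes gave 6 and 5 falls, with medians of -1.46 and -1.35. Genes of G2 and mitosis gave 1 fall in each, with medians of -0.48 and -0.57 beside -1.04 in the double-positive cells. Basement membrane genes gave 5 and 17 rises, with medians of 0.98 and 2.58.

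Whether the change itself differed was tested by the difference of the 2 contrasts. Of 22909 genes, 2 (0.00873%) differed between the double-positive and the Sox1+FoxA2- cells and 2 (0.00873%) between the double-positive and the Sox1-FoxA2+ cells. Both times they were Pcolce and Gbp2, a guanylate-binding protein induced by interferon. Gbp2 was at 1.16, 1.81 and 0 in the double-positive parents and at 2128, 1067 and 1565 in their progeny. It was at 36.8, 211 and 198 in the Sox1+FoxA2- parents and at 2409, 2448 and 2090 in their progeny, and at 108, 153 and 519 against 885, 760 and 1047 in the Sox1-FoxA2+ cells. The groups thus differed more in the parents than in the progeny. The change in Gbp2 was larger in double-positive cells by 6.34 on the log2 scale (SE 1.05, edgeR adjusted p = 0.0406) against Sox1+FoxA2- and by 8.50 (SE 1.07, edgeR adjusted p = 0.00121) against Sox1-FoxA2+ cells. With the replicate number as a block, the first difference was 6.20 and no longer passed (edgeR adjusted p = 0.0856), and the second was 8.34 (edgeR adjusted p = 0.00267).

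Pcolce was at 0 in the double-positive parents, at 38.7, 105 and 606 in the Sox1+FoxA2- parents and at 112, 28.5 and 72.3 in the Sox1-FoxA2+ parents. Its edgeR adjusted p for the difference was 0.0406 against the first and 0.0353 against the second population. With the replicate block these were 0.0856 and 0.0475, so 0 genes passed against the Sox1+FoxA2- cells, where 1675 had an unadjusted p under 0.05. In 13 refits that left out libraries, the call against the Sox1+FoxA2- cells was lost 9 times for Gbp2 and 8 times for Pcolce. Against the Sox1-FoxA2+ cells it was lost once for Gbp2, without replicate 1 of the 3 D4 progeny groups (edgeR adjusted p = 0.201), and 6 times for Pcolce. Lrp2 rose in the double-positive progeny and had log2 fold changes of -0.88 in Sox1+FoxA2- cells and 2.81 in cells with FoxA2 alone, but the differences of change, 2.30 and -1.39, did not pass (edgeR adjusted p = 0.434 and 0.535). The same held for Top2a, with differences of -1.14 and -0.92 (edgeR adjusted p = 0.571 and 0.535). With so few calls the test leaves most differences between populations undecided, as 1855 and 2048 genes had an unadjusted p under 0.05.

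**Figure D4:**
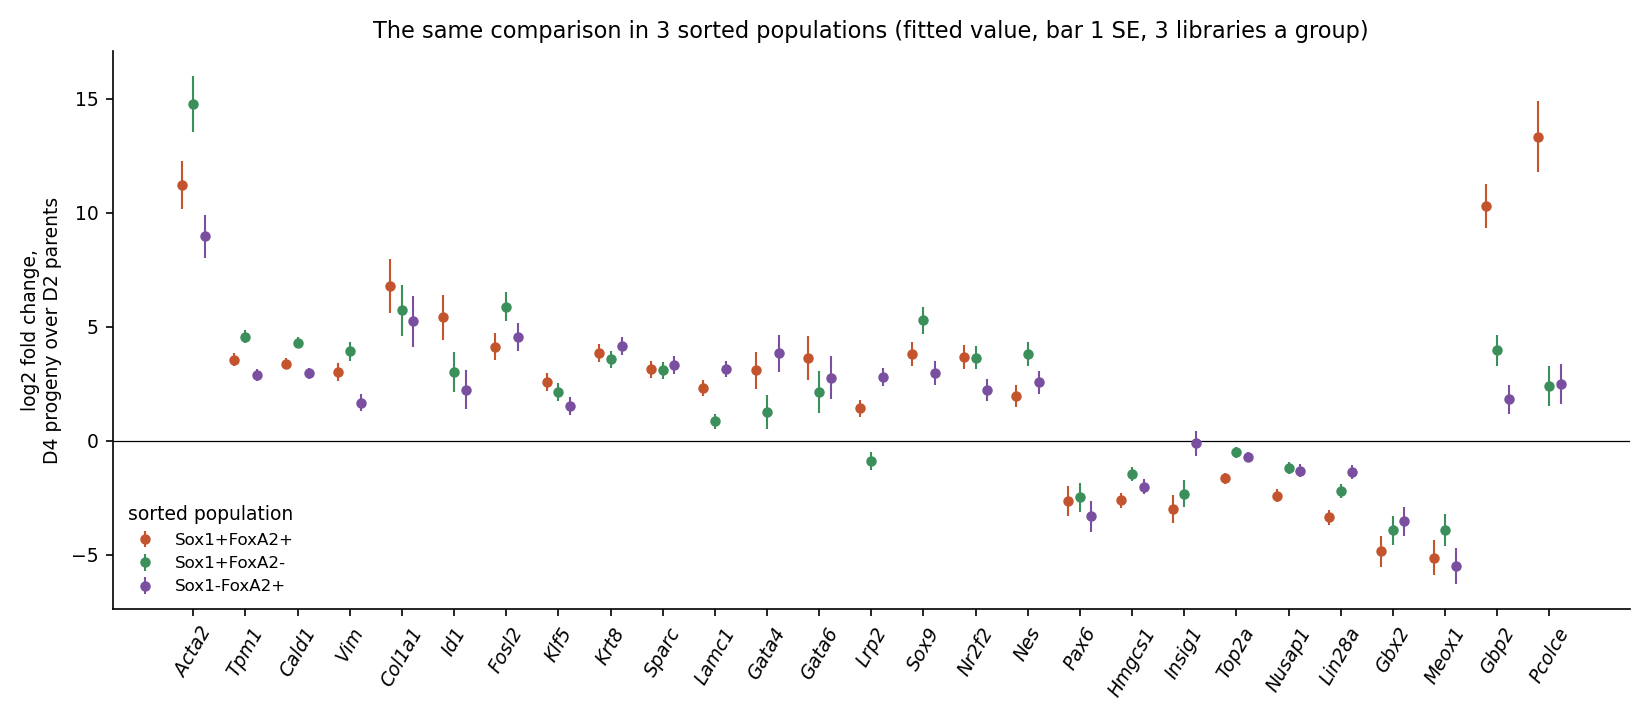
Log2 fold changes of D4 progeny against D2 parents for selected genes in the double-positive population and in the populations positive for 1 reporter; each point is a fitted value with a bar of 1 SE, from 3 libraries a group. Lin28a lies below 0 in all 3 (-3.36, -2.20 and -1.38), whereas Lrp2 is at 1.42 in the double-positive cells, 2.81 in the population positive for FoxA2 alone and -0.88 in that positive for Sox1 alone.

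Sox1+FoxA2+ cells that stayed in N2B27 and were sorted at D4 give the same age without replating or serum, although they were sorted at harvest. They share libraries with neither group of the main contrast, but the contrasts below reuse its progeny or its parents, so values are set side by side. Against these cells, 159 of 21247 genes tested (0.748%) differed in the progeny, 113 higher and 46 lower. DESeq2's Wald test turned this balance, with 403 higher and 629 lower. Between the sorted cells at D4 and D2, 21 genes (0.0988%) changed, 17 higher and 4 lower, while the fit of all 57 libraries gave 31 higher and 63 lower. The first count fell to between 38 and 100 without cells sorted at D4 replicate 2 or 3 or any 1 progeny library, and the second was 2 without parent replicate 2, 212 without parent replicate 3, and 8 and 12 without cells sorted at D4 replicate 2 and 3. The median of all genes was -0.24 and 0.33 in the 2 contrasts with the main scaling and -0.37 and 0.50 with DESeq2 size factors, where the counts of calls were 149 and 23.

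Acta2 was at 1262, 695 and 459 normalized counts in the cells sorted at D4, between parents and progeny. It was higher in the progeny than in these cells by 5.13 on the log2 scale (SE 0.58, edgeR adjusted p = 0.00319). Other genes of the smooth muscle and serum response list were higher as well, 11 of 24 in all, with a median of 2.66. Between the cells sorted at D2 and D4, 1 of them, Acta2, was called by edgeR, and the median was -0.03. At an unadjusted p under 0.05 the list had 20 and 5 genes in these 2 contrasts, beside 2402 and 3996 of all 21247 genes tested. By DESeq2 it had 16 and 4, beside 1032 and 2252 of all genes. Ecm1, an extracellular matrix protein, was at 48.2, 0 and 226 in the cells sorted at D4 and at 9427, 16468 and 6167 in the progeny (log2 difference 7.17, SE 1.14, edgeR adjusted p = 0.0121). Fosl2 was higher by 4.70. Col6a6, a type VI collagen chain, was higher by 4.01, and Trim30a by 3.77, although the progeny libraries were uneven in Trim30a, at 68089, 4120 and 7740. The calls of Acta2 and Ecm1 held without each library in turn, and those of Fosl2, Col6a6 and Trim30a did not, with adjusted p up to 0.0982, 0.0783 and 0.157.

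Among the genes most reduced in the progeny against the cells sorted at D4 were some that neurons use. The list of neuronal genes, however, gave 0 calls of 14 tested by edgeR. It had 1 gene at an unadjusted p under 0.05, beside 2402 of all 21247 genes tested, and 0 by DESeq2, beside 1032. Fgf14, a partner of sodium channels, was at 5176, 7024 and 6154 in the cells sorted at D4 and at 540, 639 and 590 in the progeny (log2 difference -3.13, SE 0.51, edgeR adjusted p = 0.014). Grin2a, a glutamate receptor subunit, Rbfox3, the neuronal splicing factor NeuN, and Gfra1, a GDNF receptor, were lower by 3.59, 3.09 and 3.11 on the log2 scale, and Adamts17, a matrix protease, by 3.71. Each of these 5 calls was lost without some library, with adjusted p up to 0.168. Whether reads from introns add to the values of these genes was not tested. In the parents Fgf14 was at 274, 229 and 895 and Rbfox3 at 659, 603 and 1460, so the progeny stayed near the D2 level in both. Gria1, another glutamate receptor subunit, changed from 195, 120 and 127 at D2 to 2272, 3651 and 3975 in the cells sorted at D4 (4.16, SE 0.57, edgeR adjusted p = 0.0194), and was at 665, 451 and 515 in the progeny.

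Fbln2, a matrix glycoprotein, was at 2.31, 0 and 0 at D2, at 144, 712 and 383 in the cells sorted at D4 and at 2480, 2296 and 1704 in the progeny. Lin28a was at 5217, 8769 and 4790 in the cells sorted at D4, which lies between parents and progeny, and Grb10 was at 1338, 2097 and 1548, at the level of the progeny. Gbp2 was among the genes higher at D4 than at D2 in sorted cells as well, by 7.31 on the log2 scale. Fasn, the fatty acid synthase, was at 33283, 41969 and 39900 at D2, at 15042, 16885 and 16737 in the cells sorted at D4 and at 11254, 12263 and 11243 in the progeny. Hmgcs1 and the other cholesterol genes gave 0 calls by edgeR against the cells sorted at D4, with a median of -0.43, and 0 calls between the cells sorted at D4 and D2, with a median of -0.999. At an unadjusted p under 0.05 they numbered 4 and 7, beside 2402 and 3996 of all 21247 genes tested. By DESeq2 they numbered 3 and 1, beside 1032 and 2252 of all genes. Slc9a3r1, a scaffold of membrane proteins, was lower in the cells sorted at D4 (2789, 2206 and 2535) than at D2 (5665, 9609 and 8861), while the progeny were at 7017, 6568 and 4479. Of the genes named for the change between D2 and D4 in sorted cells, Acta2 alone held without each library in turn, and the others were lost at least without parent replicate 2, with adjusted p up to 0.144.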

How the data were processed

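RNA from mouse cells of 19 groups (57 libraries) was made into stranded SMART-Seq libraries. Reads were aligned by the authors with STAR to GENCODE M21 (GRCm38) and counted with featureCounts, and raw read counts per gene were deposited by the authors. Versions of these tools are not given in the sources used here. Genes inside other genes have almost no counts in this table: 1355 of 1359 protein-coding genes lying wholly inside others on either strand (99.7%) were at 0 in all libraries. Strand use in counting is not stated for this table, so antisense partners cannot be told apart. Whether reads from introns were counted is not stated either. The table held 55450 genes, and 92 lines that named no gene carried 0 counts and were left out.

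Groups and replicate numbers were taken from the sample titles. Counts were tested in R 4.3.3 with edgeR 4.0.16 (TMM scaling, filterByExpr by group, quasi-likelihood test, prior count 0.125). The filter used a minimum count of 10, which need not be met in every library, and a minimum total of 15. The SE is the absolute log2 fold change divided by the square root of the F statistic. The D2 parents and D4 progeny of the 3 sorted populations were fitted together (18 libraries, 22909 genes), and the Sox1+FoxA2+ parents, progeny and cells sorted at D4 in a second fit (9 libraries, 21247 genes). Normalized counts were counts divided by size factors of DESeq2 1.42.0 over all 57 libraries, whose totals ran from 10170632 to 81845651. Genes at 0 in a group were compared with a floor of 3 counts per library, which covers counting error only.

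Named genes were Foxa2 and Sox1, members of 37 gene lists, and the 15 called genes with the largest change in each direction among those whose libraries did not overlap, with a mean of at least 200 normalized counts and a gene symbol that is no placeholder. For each other comparison up to 5 genes in each direction were named. The comparison and the lists were chosen with earlier results of these data known. Ribosomal, histone and mitochondrial families were chosen after their values had been seen, as were Krt7 and Cldn4 as examples. Promoter windows came from RefSeq (GRCm38.p6) and matched by symbol for 15148 of the genes tested. Some genes are not reported here. Deviations of same-numbered D4 progeny libraries from their group means correlated at 0.618, 0.388 and 0.426 between the double-positive and the Sox1+FoxA2- progeny and at 0.611, 0.423 and 0.28 against the Sox1-FoxA2+ progeny. This pairing was read from the data and is not given in the labels. The fit was also run on simulated counts with 200 changed genes. These counts were drawn independently for each library, so the run cannot cover deviations shared between libraries. Alternatives were DESeq2, other scaling, filters, libraries in the fit, a test against a log2 fold change of 1, robust dispersion, a replicate block and leaving out each library. A filter on a mean of 50 counts and the fit without replicate 1 of the 3 D4 progeny groups were chosen after seeing the data.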

Additional observations from a re-analysis of the deposited data

Results flagged for a closer look

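Gbp2 and Pcolce were singled out because their change from D2 parents to D4 progeny differed between sorted populations in the test of the difference itself. For Gbp2 the double-positive cells exceeded the Sox1+FoxA2- cells in this change by a log2 difference of 6.34 (SE 1.05, edgeR adjusted p = 0.0406). The same difference was 8.50 (SE 1.07, edgeR adjusted p = 0.00121) against cells that were FoxA2+ alone. For Pcolce the fitted differences were 10.93 (SE 1.72, edgeR adjusted p = 0.0406) and 10.85 (SE 1.72, edgeR adjusted p = 0.0353). Since Pcolce was at 0 in all 3 double-positive parents, its fitted values depend on the prior count and are no bounds. With the replicate number as a block, neither gene passed against the Sox1+FoxA2- cells (edgeR adjusted p = 0.0856 for both), and both passed against cells that were FoxA2+ alone (edgeR adjusted p = 0.00267 for Gbp2 and 0.0475 for Pcolce). In D0 cells, titled Sox1-FoxA2- and listed without RA, Pcolce was at 1458, 77.8 and 1443 normalized counts and Gbp2 at 204, 1365 and 428. Both genes were thus detected before D2, in cells that differ from the D2 parents in reporter state and treatment. In the D6 progeny of the double-positive cells Pcolce stood at 1451, 1358 and 1387 and Gbp2 at 676, 337 and 462.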

How the results depend on the processing

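No value of a named gene changed direction past the threshold under any alternative. The balance of higher and lower calls did turn in both comparisons with cells sorted at D4, as given above. Without a filter on low counts it also turned in the difference from Sox1-FoxA2+, with 55 higher and 63 lower. Some list medians changed sign, such as that of mesendoderm genes, from -1.16 to 1.75 without parent replicate 1. In the order of the comparisons above (progeny against parents, its difference from the Sox1+FoxA2- and from the Sox1-FoxA2+ cells, progeny against cells sorted at D4, sorted cells at D4 against D2), the counts of calls were 654, 2, 2, 159 and 21. They were 2145, 340, 625, 1032 and 2252 with DESeq2's Wald test, 1117, 48, 118, 703 and 561 without a filter on low counts, and 355, 0, 0, 294 and 94 with all 57 libraries in the fit. A replicate block gave 771, 0, 2, 243 and 54. The numbers do not pair parents with progeny, whose same-numbered deviations correlated at -0.0675, 0.122 and -0.0483, but D4 progeny of the 3 populations did deviate together by number. The block ended the calls of Gbp2 and Pcolce against the Sox1+FoxA2- cells. With only the groups compared, calls numbered 309 for progeny against parents, 0 for the difference from Sox1+FoxA2- and 0 for the sorted cells, and against a log2 fold change of 1 they numbered 152 for progeny against parents. The filter on a mean of 50 counts gave 0 and 1 for the differences and 11 for the sorted cells. Without replicate 1 of the 3 D4 progeny groups, progeny against parents gave 389 and the differences 0 and 0. Leaving out 1 library gave 340 to 674, 0 to 47, 1 to 35, 38 to 177 and 2 to 212. In fits with 0 calls, 800 to 2235 genes had an unadjusted p under 0.05 for the difference from Sox1+FoxA2-, 1106 and 2267 for the difference from Sox1-FoxA2+, and 1752 for the sorted cells. The cause of these shifts was not tested. Over 153 values of named genes, 1875 refitted values kept their side of the threshold and 528 no longer passed it, and medians of 37 lists stayed in 532 refits and moved by over 0.5 or in sign in 60. Depth limits the low genes most in progeny replicate 1, the shallowest of the 6 libraries.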
